A study of Mus musculus with 8 samples.

Results

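Major urinary proteins (MUPs) are small secreted lipocalins, barrel-shaped carriers that bind pheromones in mouse urine. Most are made in the liver under the control of growth hormone, and some are made in salivary, lacrimal and mammary glands. The 2 probe sets described here, 1420465_s_at and 1426154_s_at, were selected on their signal out of 22626 measured in mouse lymph node (LN), because it was lower in all 4 arrays labelled H3RKO, from mice lacking the histamine H3 receptor (Hrh3), than in all 4 wild type (WT) arrays. The platform annotation used here lists no gene for either of them. The name Mup comes from the study, whose tables list Mup1, and the annotation ties neither probe set to 1 gene. The suffix _s_at marks a probe set whose probes match several related transcripts, so that a signal may sum over several members of a gene family.

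RNA was taken from the LN of C57Bl/6 mice that were wild type or H3RKO, the latter carrying the disrupted Hrh3 allele of the line B6.129P2-Hrh3tm1Twl, all 8 weeks old. Each array was 1 pool of at least 3 mice, and pools held females and males. For each genotype there were 2 arrays of untreated mice, 1 array of mice injected with complete Freund's adjuvant (CFA) and 1 array of mice given CFA with pertussis toxin (CFA+PTX), the treated mice being killed the day after injection. The WT mice were bought and the H3RKO mice were bred by the investigators, so that genotype and colony cannot be told apart. The 2 arrays of an untreated group give the only replicate spread, and treated groups have none of their own. Values are log2 signals normalized by the authors with the Robust Multichip Average (RMA) method, so a difference of 1 is a factor of 2 in linear signal.

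Mup genes lie side by side on mouse chromosome 4 and resemble each other to different degrees. All 22 protein-coding Mup genes of the RefSeq table were on chromosome 4, whereas Hrh3 was on chromosome 2. The stretch from 60 bases before a TATATAA box to the base before the annotated start is shown for 4 genes of the family. It shows how far these 4 genes are alike outside their coding parts. The box is in capitals, each sequence reads 5′ to 3′, and all come from RefSeq on GRCm38.p6.

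Mup2, chr4:60139857-60139943, minus strand: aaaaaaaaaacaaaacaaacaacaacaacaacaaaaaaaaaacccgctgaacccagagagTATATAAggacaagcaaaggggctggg
Mup17, chr4:61595833-61595917, minus strand: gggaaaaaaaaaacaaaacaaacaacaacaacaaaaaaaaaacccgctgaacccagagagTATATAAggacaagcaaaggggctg
Mup4, chr4:59960668-59960756, minus strand: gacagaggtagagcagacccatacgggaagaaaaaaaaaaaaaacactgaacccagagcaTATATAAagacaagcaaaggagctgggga
Mup3, chr4:62087318-62087388, minus strand: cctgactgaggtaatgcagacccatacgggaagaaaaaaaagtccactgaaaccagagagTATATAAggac

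The 67 bases that end with the box were aligned to those of Mup2 with gaps allowed. Identity, as a share of the aligned positions with gaps counted, was 91.4% for Mup17, 66.2% for Mup4 and 63.8% for Mup3. On the strand of the gene or on the other, TATATAA was found in 13 of the 14 Mup promoters in the table, each 300 bases long, and in 3.24% of all 32851 promoters. The match is a description of the letters, and Mup1 has no entry in the table.

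For 1420465_s_at the WT CFA array stood apart from the other WT arrays. The untreated WT arrays read 12.46 and 12.57, WT CFA read 10.48 and WT CFA+PTX read 12.81. In arrays labelled H3RKO it was 9.09 and 9.27 when untreated, 9.15 with CFA and 9.20 with CFA+PTX. All H3RKO arrays thus lay in a narrow band of 0.18, 3 WT arrays lay far above them, and the WT CFA array lay in between. The linear signal ran from 545.3 to 618.5 in H3RKO and from 5634.2 to 7191.1 in the 3 WT arrays other than CFA, which read 1430.2.

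The second probe set, 1426154_s_at, showed the same split. The untreated WT arrays read 7.97 and 8.27, WT CFA read 5.09 and WT CFA+PTX read 8.09. In arrays labelled H3RKO it was 4.47 in both untreated arrays, 4.17 with CFA and 4.01 with CFA+PTX. Here the WT CFA array lay close to the H3RKO arrays, at 34.1 in linear signal against 16.1 to 22.2 in H3RKO and 250.1 to 308.8 in the other WT arrays. Across the 8 arrays the 2 probe sets had a Pearson r of 0.987. Both were chosen for the same split between genotypes, so r is a description, and they may also read the same transcripts.

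**Figure D1:**
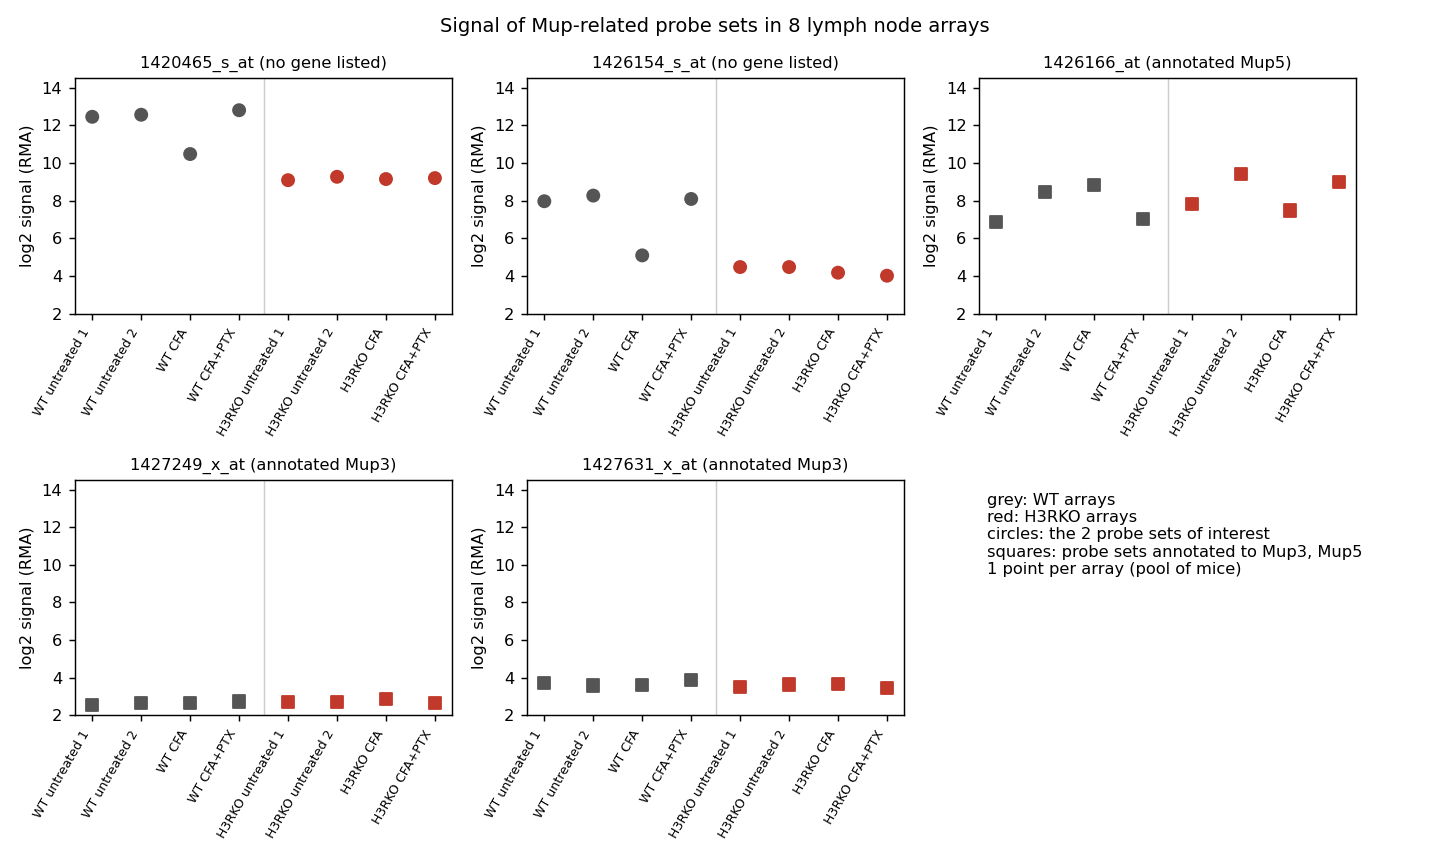
Log2 RMA signal (vertical axis, the same in each panel) in the 8 arrays (horizontal axis, WT in grey and H3RKO in red) for 1420465_s_at, 1426154_s_at and the 3 probe sets that the annotation gives to a Mup gene, with 1 point per array. The first 2 probe sets were lower in all 4 H3RKO arrays, with the WT CFA array at 10.48 and 5.09, whereas the genotypes overlapped in the other 3.

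The genotype difference chose these probe sets and is therefore described without a test. The mean over all arrays of a genotype differed by -2.90 for 1420465_s_at and by -3.07 for 1426154_s_at (H3RKO minus WT, log2). For 1420465_s_at the signal was lower in H3RKO by a factor of 10.09 in untreated LN, 2.52 after CFA and 12.27 after CFA+PTX. For 1426154_s_at the factors were 12.54, 1.89 and 16.89, which may understate the difference because its H3RKO signal was near the bottom of the scale. The difference was thus much smaller after CFA than in the other conditions for both probe sets, since the WT value was low in that array while the H3RKO values were not. The standard deviation (SD) within the untreated pairs was 0.08 in WT and 0.13 in H3RKO for 1420465_s_at (n = 2 each). For 1426154_s_at it was 0.22 in WT, and both untreated H3RKO arrays read 4.47.

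The rule requires no overlap, and the gap between the lowest WT and the highest H3RKO array gives how far a probe set is from breaking it. The gap was 1.21 for 1420465_s_at and 0.62 for 1426154_s_at, the widest of the 213 probe sets (0.941% of all) that were lower in all H3RKO arrays. The median gap of the 213 was 0.02. Next came 1427820_at, which has no listed gene, with a gap of 0.55, and Krt19, a keratin of simple epithelia, with 0.53, followed by Pmepa1 at 0.21. In the opposite direction 168 probe sets (0.743% of all) were higher in all H3RKO arrays, where the widest gap was 0.54 for Hrh3. Both shares were set by the same contrast as the rule and nothing is read from them.

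The knocked-out gene was itself listed higher in the knockout. The Hrh3 probe set 1448807_at was 6.64 and 6.56 in untreated WT, 6.66 with CFA and 6.63 with CFA+PTX, against 7.20, 7.21, 7.29 and 7.25 in the same order in H3RKO. Whether its probes lie in the disrupted part is not known here, so this probe set does not check the labels, and directions between genotypes are given as labelled. All 4 WT arrays were alike in Hrh3, the WT CFA array included.

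The fall in the WT CFA array was known when these probe sets were chosen, so its ranks and p-values set its size against the untreated pairs and are no independent evidence of it. Against untreated WT, 1426154_s_at fell by 3.03 (standard error, SE, 0.15; 8.16-fold lower), which ranked 1 among all falls in that array. The adjusted p was 0.0234 by limma with Benjamini-Hochberg adjustment over all probe sets. For 1420465_s_at the change was -2.03 (SE 0.13; 4.1-fold lower), rank 5, with an adjusted p of 0.0544 by limma. Both met the criterion of the study, an unadjusted p under 0.05 with a fold change over 2, as did 84 probe sets (0.371% of all). After adjustment only 1426154_s_at and Tmem45b, a membrane protein gene that changed by -2.24, stayed under an adjusted p of 0.05. The test takes the spread of the single CFA pool from the untreated pairs, so a difference between pools cannot be told apart from an effect of CFA.

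No change of either probe set met the criterion in H3RKO, or with CFA+PTX in WT. With CFA the H3RKO array differed from untreated H3RKO by -0.03 (SE 0.13) for 1420465_s_at and by -0.30 (SE 0.15) for 1426154_s_at, with adjusted p of 0.986 and 0.781 by limma (0.208% of all probe sets met the criterion). With CFA+PTX the WT array differed from untreated WT by 0.30 (SE 0.13) and -0.03 (SE 0.15), with adjusted p of 0.62 and 0.976 by limma (0.349% of all). With CFA+PTX the H3RKO array differed by 0.01 (SE 0.13) and -0.46 (SE 0.15), with adjusted p of 0.999 and 0.995 by limma (0.212% of all). In H3RKO the signal of 1426154_s_at was already near the bottom of the scale, where RMA values are compressed and a decrease is read only in part, which also touches its difference between genotypes.

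The difference between genotypes in the change with CFA uses the same arrays as the rule, 1 of them with CFA per genotype, and is a description of the fall above. It met the criterion of the study for both probe sets but did not pass after adjustment. The change in H3RKO minus that in WT was 2.00 (SE 0.18) for 1420465_s_at and 2.73 (SE 0.21) for 1426154_s_at, each with an adjusted p of 0.348 by limma. At the unadjusted criterion 0.667% of all probe sets were called in this comparison, and 0 passed an adjusted p of 0.05 by limma (1295 had an unadjusted p under 0.05). For CFA+PTX the corresponding differences were -0.28 (SE 0.18) and -0.43 (SE 0.21), neither called, with an adjusted p of 1 by limma (0.265% of all probe sets called). Between the 2 treated WT arrays, CFA+PTX was above CFA by a factor of 5.03 for 1420465_s_at and 7.98 for 1426154_s_at.

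**Figure D2:**
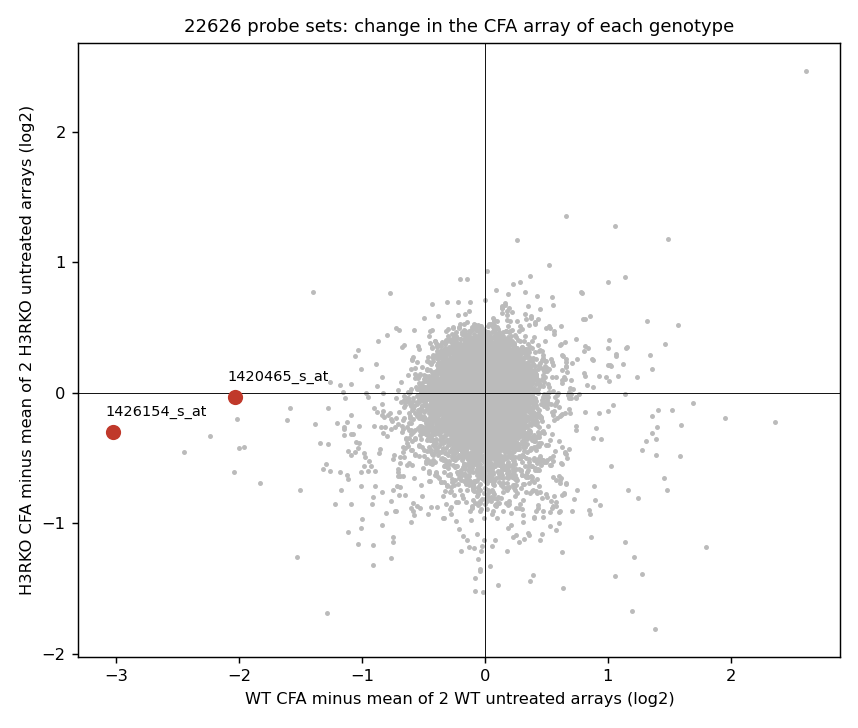
Change from untreated to CFA in WT (horizontal axis, log2) and in H3RKO (vertical axis, log2) for 22626 probe sets, each a grey point, with 1420465_s_at and 1426154_s_at in red. The 2 red points lie at -2.03 and -3.03 on the WT axis and at -0.03 and -0.30 on the H3RKO axis.

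The rule required the WT CFA array to stay above every H3RKO array, so that a fall to the H3RKO level could not have been seen here. For 1420465_s_at it lay, on the log2 scale, 38.0% of the way from the H3RKO mean to the mean of the other WT arrays, and 14.9% of the way on the linear scale. No such share is given for 1426154_s_at, whose H3RKO signal was near the bottom of the scale.

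The 3 probe sets that the annotation gives to a Mup gene did not share this pattern. The probe set for Mup5, a family member known from salivary gland, was 6.87 and 8.48 in untreated WT, 8.82 with CFA and 7.02 with CFA+PTX, against 7.83, 9.42, 7.48 and 9.0 in H3RKO. The genotypes overlapped, and the 2 arrays of each untreated group were further apart (SD 1.14 in WT and 1.13 in H3RKO) than for the probe sets of interest. The 2 probe sets for Mup3, 1427249_x_at and 1427631_x_at, stayed between 2.52 and 2.85 and between 3.45 and 3.87, near the bottom of the scale in all 8 arrays. For these 3 probe sets no change with treatment met the criterion, which 0.208% to 0.371% of all probe sets met.

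LN is embedded in fat and lies near glands, and the signal of genes used as markers of those tissues differed between the arrays. Of 17 measured adipocyte genes, 17 were lower in the WT CFA array than in untreated WT, as were 11781 of all 22626 probe sets. Their median difference was -0.65 beside -0.01 over all probe sets, and 7 met the criterion as lower (53 of 22626 did overall). The list was written with earlier results of these data known. It holds Nnat, Retn and Npr3, which the study's tables for these arrays also name, so the counts are a description. In WT CFA+PTX 1 of the 17 was called lower, in H3RKO CFA 0 and in H3RKO CFA+PTX 1, beside 48, 45 and 28 of all 22626 probe sets. Among them Nnat, a proteolipid gene expressed in fat, changed by -2.45 (adjusted p = 0.0672 by limma) and Retn, the adipocyte hormone resistin, by -1.61 (adjusted p = 0.0801 by limma). Lep, the hormone leptin, changed by -1.29 (adjusted p = 0.632 by limma). The WT CFA array held the lowest value of all 8 in 5 of the 17, as it did in 10.1% of all probe sets.

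The mean of the 17 adipocyte genes was 10.31 and 10.20 in untreated WT, 9.40 with CFA and 9.70 with CFA+PTX, and 10.06, 9.85, 9.90 and 9.49 in H3RKO. WT CFA was thus the lowest WT array in both measures, but WT CFA+PTX, where the 2 probe sets were high, was also below untreated WT in adipocyte genes. Single genes differed in untreated H3RKO, where Plin4, a lipid droplet protein gene, was 9.60 and 9.57 against 10.52 and 10.34 in untreated WT, whereas Lep was 7.20 and 7.11 against 6.37 and 6.95. Adipoq, the adipocyte hormone adiponectin, was 12.15 and 12.16 in untreated WT, 11.01 with CFA and 11.45 with CFA+PTX. In H3RKO it was 11.51, 11.59, 11.51 and 10.93. The part of fat RNA in the fall with CFA was not tested, and in whole tissue fewer cells of a type and less RNA per cell cannot be told apart.

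Genes of salivary and lacrimal gland showed a different order again. None of 16 such genes was called in WT CFA, where 53 of 22626 probe sets were called lower and 31 higher, and 9 were called lower in WT CFA+PTX, as were 48 of 22626. Their mean was 8.63 and 11.63 in untreated WT, 11.14 with CFA and 5.63 with CFA+PTX, and it lay between 11.12 and 11.79 in H3RKO. Pip, a secreted gland protein, was 9.67 and 13.37 in untreated WT, 12.91 with CFA and 4.28 with CFA+PTX, against 12.79 to 13.46 in H3RKO. The untreated WT replicate 1 and WT CFA+PTX arrays were thus low in the mean of these genes, called poor in gland RNA here. The probe sets of interest were high in both arrays. The Mup5 probe set was lowest in the same 2 arrays. WT untreated replicate 2, with a gland mean of 11.63, read 12.57 for 1420465_s_at and 8.27 for 1426154_s_at. Without the 2 arrays poor in gland RNA the mean differences between genotypes were -2.35 and -2.40. Only WT untreated replicate 2 and the low WT CFA array then stood for WT, so the CFA array weighed more in the mean. The part of gland RNA was not tested.

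Liver is where Mup expression is best known, and the mean of its genes varied little across the arrays. Alb, the albumin gene, lay between 5.29 and 5.53, and the mean of 20 measured liver genes between 5.76 and 6.05. Cyp2e1, a cytochrome P450 of liver and fat, ranged from 9.51 to 11.68, Itih4, an acute phase protein gene, from 5.79 to 7.94, and Serpina1b, a protease inhibitor gene, lay between 10.14 and 10.73. The median change of the 20 in WT CFA was -0.03 beside -0.01 over all probe sets. There 0 of the 20 met the criterion, as did 0.371% of all probe sets, so nothing is read from this count. With CFA+PTX 1 of the 20 was called higher in WT and 1 in H3RKO, beside 31 and 20 of all 22626 probe sets. LN identity was even across arrays, with a mean between 11.88 and 12.03 for 11 lymphocyte and stromal genes. Among other lipocalins, 2 of 16 measured met the criterion as lower in WT CFA, as did 53 of 22626 probe sets. They were Orm1, an acute phase protein gene, at -2.01 and Rbp4, the retinol carrier of plasma and fat, at -1.83, with adjusted p of 0.122 and 0.0971 by limma. Neither separated the genotypes.

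**Figure D3:**
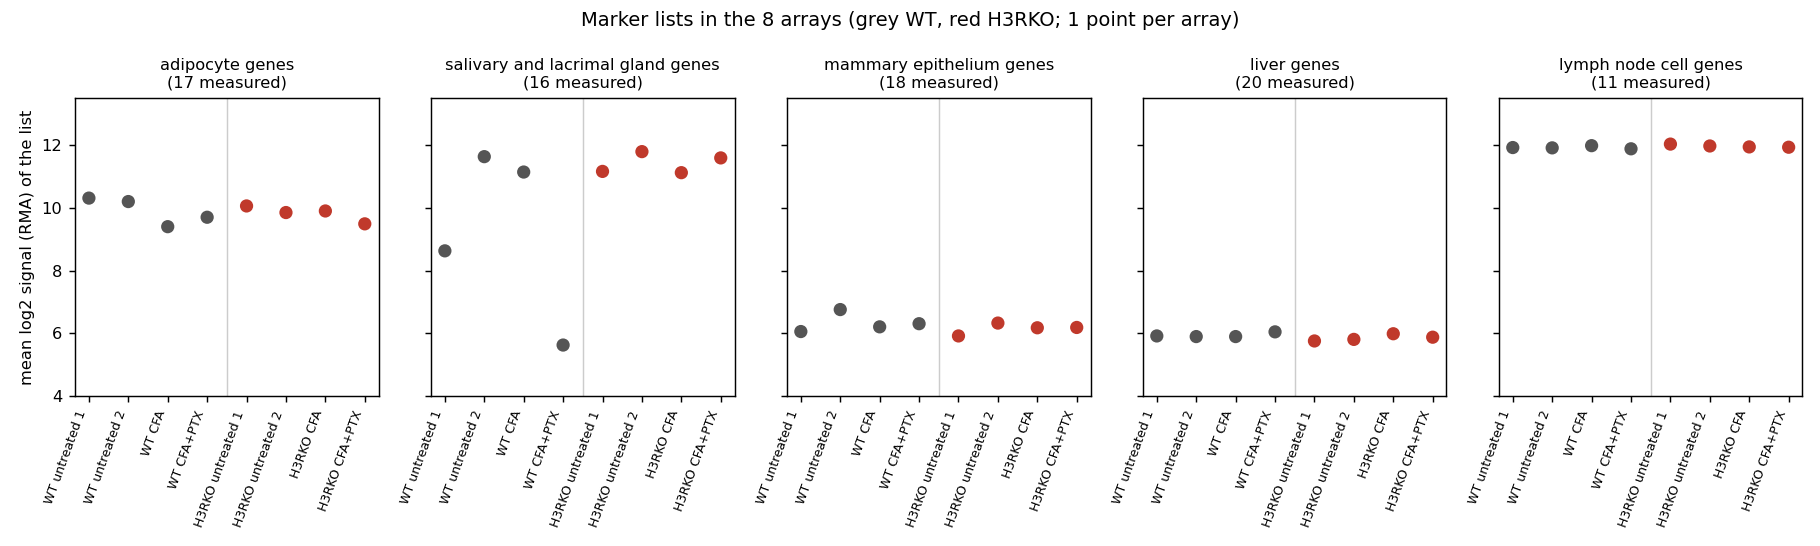
Mean log2 RMA signal (vertical axis) of 5 marker lists in the 8 arrays (horizontal axis, WT in grey and H3RKO in red), with 1 point per array. The adipocyte mean was lowest, at 9.40, in the WT CFA array, and the salivary and lacrimal gland mean was lowest, at 5.63, in the WT CFA+PTX array.

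A list of hormone signalling and transcription factor genes linked to Mup expression in liver held 17 measured genes. Of these, 1 met the criterion in WT CFA, as did 0.371% of all probe sets. Ghr, the growth hormone receptor, was 10.10 and 10.22 in untreated WT, 8.96 with CFA and 9.58 with CFA+PTX, against 9.27, 9.68, 9.24 and 9.45 in H3RKO. Its change in WT CFA was -1.20 (SE 0.19), with an adjusted p of 0.379 by limma. The WT CFA array was lowest of the 8 for Ghr, as for the carrier subunit Igfals, which changed by -0.51 (adjusted p = 0.71 by limma), and Igf1, which changed by -0.45 (adjusted p = 0.981 by limma). The median change of the list was -0.08 beside -0.01 over all probe sets. Stat5b, which carries the growth hormone signal to the nucleus, differed by 0.01. Female and male genes were both present in every array, with Xist between 12.55 and 13.11 and the Y-linked Eif2s3y between 8.29 and 8.91.

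The probe sets most like the 2 were sought by Pearson r with their mean over the 8 arrays, among the 614 with a range of at least 1 log2 unit. The arrays share genotype and treatment, and r is given as a description. The highest was Retn, the resistin gene, with r of 0.917, followed by Krt19 with 0.90, the unnamed 1417867_at with 0.898 and 1421134_at with 0.881. Next were Cyp2e1 with 0.821 and Foxa1, a transcription factor of epithelia and liver, with 0.780. Slc7a10, an amino acid transporter of fat, had 0.779, and Cldn4, a tight junction gene of epithelia, had 0.754. Prkg2, a cGMP-dependent kinase, and Gbp2b, an interferon-induced GTPase, closed the 10 with 0.734 and 0.733.

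In 8 of the 10 no WT array was below WT CFA, as in 22.38% of all probe sets. Krt19, Foxa1 and Cldn4, 3 of the 10, were lower in all H3RKO arrays, as were 0.941% of all probe sets. The 10 were picked for likeness to a profile with both traits, so nothing is read from these counts. Retn was 10.80 and 10.61 in untreated WT, 9.09 with CFA and 10.33 with CFA+PTX, against 9.51, 9.42, 9.26 and 8.87 in H3RKO. Like the 2 probe sets it was lowest in WT CFA among WT arrays, but 3 of its H3RKO arrays were above that value. Krt19 was 6.89 and 8.40 in untreated WT, 6.61 with CFA and 7.76 with CFA+PTX, against 5.45, 5.91, 6.00 and 6.08 in H3RKO. It kept the genotypes apart, but its untreated WT replicates were further apart than the change with CFA of -1.03 (SE 0.59; adjusted p of 1 by limma).

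The unnamed 1421134_at was 5.65 and 6.55 in untreated WT, 4.51 with CFA and 6.76 with CFA+PTX, against 4.27, 4.53, 4.28 and 5.26 in H3RKO. It came close in the drop with CFA, yet 2 of its H3RKO arrays were above WT CFA. The unnamed 1417867_at was 13.19 and 13.07 in untreated WT, 11.95 with CFA and 12.78 with CFA+PTX, against 12.05, 12.01, 12.08 and 11.25 in H3RKO. All 4 of these profiles moved over a smaller range than the 2 probe sets. Foxa1 and Cldn4 differed from them in that their WT CFA array was not low, at 6.19 and 6.44.

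Which names appeared depended on how likeness was taken. With 1420465_s_at alone 9 of the 10 remained, with 1426154_s_at alone 8, and without the WT CFA array 8. By the distance between centred profiles, which counts the size of the movements, 6 of the 10 were shared, and 1427820_at, Dmbt1, Ido1 and Tlcd4 took the remaining places. The smallest distance was 2.66, that of Krt19. Without the filter on range none of the 10 remained, since probe sets with small movements took their place, and without the 2 arrays poor in gland RNA 1 remained (a choice made after seeing the data). Krt19, Foxa1 and Cldn4 all belong to the list of mammary epithelium genes. Of 18 measured they were the 3 lower in all H3RKO arrays, beside 0.941% of all probe sets. In the rest of the list the genotypes overlapped. The 3 were found by likeness to profiles split by genotype, so nothing is read from the count. The mean of that list was 6.06 and 6.76 in untreated WT, 6.21 with CFA and 6.31 with CFA+PTX, against 5.92, 6.33, 6.18 and 6.19 in H3RKO.

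Among the same 614 probe sets, the 5 most opposite profiles held myeloid genes. The lowest r was -0.908 for Chil3, a chitinase-like protein of macrophages, followed by S100a8 with -0.891, 1425451_s_at with -0.889, the neutrophil surface gene Cd177 with -0.885 and S100a9 with -0.876. Hrh3, whose range was under 1, had an r of -0.905, so that this list too depends on the filter. S100a8 and S100a9 form calprotectin, which neutrophils hold in large amounts. S100a9 was 8.85 and 9.17 in untreated WT, 9.48 with CFA and 9.03 with CFA+PTX, against 10.79, 10.68, 9.83 and 10.83 in H3RKO. It was highest among WT arrays with CFA, where the 2 probe sets were lowest, and lowest among H3RKO arrays with CFA.

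**Figure D4:**
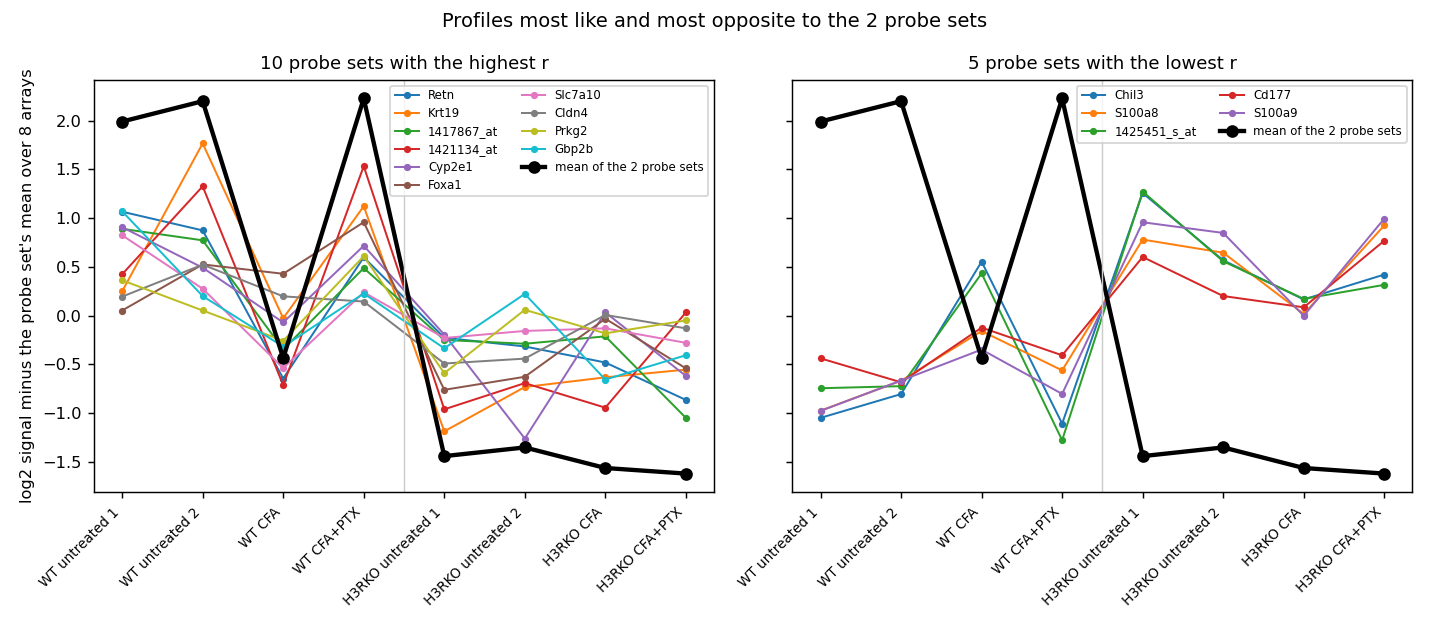
Log2 signal minus the mean of each probe set over the 8 arrays (vertical axis) by array (horizontal axis), for the 10 probe sets with the highest r (left) and the 5 with the lowest r (right), among those with a range of at least 1, with the mean of 1420465_s_at and 1426154_s_at in black. The black line drops at WT CFA and in all H3RKO arrays, and no coloured line on the left spans as large a range.

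RNA quality as read by the control probe sets did not set the WT CFA array apart. The mean 3′ minus 5′ difference of the actin and Gapdh controls was 0.31 in the WT CFA array, within the 0.16 to 0.44 of all arrays, and the array medians lay between 7.94 and 8.00.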

How the data were processed

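RNA from 8 LN pools was hybridized by the authors to Affymetrix mouse GeneChips, and they deposited log2 values made with RMA (background correction, normalization and summarization in the Partek software). The genome build was not given in the sources used here. Of 22690 rows, 64 control probe sets were set aside and 22626 tested. Probe sets were named from the platform annotation, in which 20380 had 1 gene symbol, 691 several and 1555 none, and a gene was read from its brightest probe set. A mean per group was fitted with limma 3.58.1 in R 4.3.3 (2 residual and 3.58 prior degrees of freedom), with Benjamini-Hochberg adjustment over all probe sets. Calls used the criterion of the study. The limma fit was tested on simulated data. The CFA+PTX group follows the sample descriptions, since the titles mention pertussis toxin without CFA. Nothing states that replicates came from separate experiments, so p-values measure the spread between these pools. The number of arrays limits precision. Members, gene lists and rules were chosen with earlier results of these data known. The named genes were the members, Hrh3, Mup genes, the 10 highest and 5 lowest r, the 10 nearest profiles, and up to 4 genes per list with the largest WT CFA differences. Stat5b, Adipoq, Plin4, Pip, Serpina1b, Alb, Pmepa1 and Tmem45b were added after their values were seen. Alternatives covered moderation, variance prior, normalization, centring, dim probe sets, the replicate block, single arrays and the likeness measure.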

Additional observations from a re-analysis of the deposited data

Results flagged for a closer look

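The change from untreated to CFA differed between genotypes, H3RKO minus WT, at the unadjusted criterion for 7 probe sets. They were among the 2 members, the 3 Mup probe sets and the 10 most like the members. Over all 22626 probe sets 0.667% met this criterion, and 0 passed an adjusted p of 0.05 by limma. The difference was 2.00 for 1420465_s_at and 2.73 for 1426154_s_at, each with an adjusted p of 0.348 by limma. It was 1.41 for Retn (1449182_at) and 1.23 for 1417867_at, each with an adjusted p of 0.675 by limma. It was 1.47 for 1421134_at and 1.15 for Slc7a10 (1421093_at), each with an adjusted p of 0.848 by limma, and 1.53 for Cyp2e1 (1415994_at), with an adjusted p of 0.863 by limma. The 5 probe sets beyond the members were picked for a profile that includes the low WT CFA array, so their differences are no separate evidence of it. Each rests on 1 CFA array per genotype.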

How the results depend on the processing

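Of 132 alternatives to a member's change in the 6 tested comparisons, 125 kept its direction and its side of the criterion. In WT CFA the change lay between -2.09 and -1.98 for 1420465_s_at and between -3.18 and -2.88 for 1426154_s_at. The adjusted p of both was lowest, 0.00461, by limma with a trended and robust variance prior. It was highest, 1, by an ordinary linear model without moderation. The adjusted p under 0.05 of 1426154_s_at in the main fit thus depended on moderation of the variance. With an adjusted p in place of the criterion, the change of 1420465_s_at in WT CFA (-2.035, adjusted p = 0.0544 by limma) and the CFA differences between genotypes (2.002 and 2.729, adjusted p = 0.348) were no longer called. Changes that were not called turned sign in 4 cases. That of 1420465_s_at in H3RKO CFA was 0.00542 with each array centred on its median and -0.124 to 0.0578 with 1 untreated array left out, positive without H3RKO untreated replicate 2. With 1 untreated array left out, its change in H3RKO CFA+PTX was -0.0772 to 0.104, negative without H3RKO untreated replicate 1, and that of 1426154_s_at in WT CFA+PTX was -0.183 to 0.121, positive without WT untreated replicate 2.

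Counts of called probe sets moved more. In the order WT CFA, WT CFA+PTX, H3RKO CFA, H3RKO CFA+PTX, CFA difference and CFA+PTX difference, the counts were 84, 79, 47, 48, 151 and 60. Without moderation they were 39, 35, 15, 26, 30 and 20, and with an adjusted p under 0.05 by limma 2, 0, 0, 0, 0 and 0 (unadjusted p under 0.05 for 1003, 1855, 1598, 1114, 1295 and 645). Without dim probe sets the last 4 were 25, 29, 90 and 34. Leaving out 1 untreated array gave 85 to 153 for WT CFA, the highest without WT untreated replicate 2, 82 to 170, 55 to 88, 41 to 76, 128 to 240 and 71 to 123. With a replicate block the CFA+PTX difference had 98, and adjusted p by limma became 0.0112 for both members in WT CFA. Replicate numbers of the untreated arrays showed a correlation of 0.123 between genotypes, over 2 numbers, and were not taken as pairs; the block changed no member's call.

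The genotype difference of 1420465_s_at was -2.94 to -2.74 with 1 untreated array left out, -3.44 without WT CFA, -3.33 with untreated arrays alone and -2.35 without the 2 arrays low in gland genes, a choice made after seeing the data. For 1426154_s_at it was -3.14 to -2.77, -3.83, -3.65 and -2.40. Without the 2 arrays low in gland genes, only untreated replicate 2 and the low CFA array stood for WT. The number of probe sets lower in all H3RKO arrays was 72 without dim probe sets, 587 without WT CFA, 319 to 711 with 1 untreated array left out and 1027 without the 2 gland-poor arrays. The number higher was 89, 320, 338 to 596 and 1328. Leaving out any array makes the rule of no overlap easier to meet. The counts with arrays left out can thus only rise, and nothing is read from the increase. Of the 10 most like the members, 5 remained with Spearman's rho, 0 without the range filter and 1 without the 2 gland-poor arrays. With 1420465_s_at alone 9 remained, with 1426154_s_at alone 8, and without the WT CFA array 8. The causes were not tested.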
